A study of Mus musculus with 16 samples.

Results

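Guanylate-binding proteins (GBPs) and immunity-related GTPases (IRGs) are GTP-hydrolysing proteins of cell-autonomous immunity, and 10 of their genes were followed here in mouse pulmonary endothelial cells (ECs). They were picked out by gene symbol from the 54532 genes of each expression table and are Gbp2, Gbp3, Gbp4, Gbp5, Gbp6, Gbp7, Igtp, Irgm1, Irgm2 and Iigp1. The set was chosen by its expression values in both comparisons, LPS with saline and knockout with control, the differences within equal replicate numbers included, so its values are given as a description and no p-value of a member is printed. Counts of members called describe the set beside the share of all genes and are no independent test of it. All 10 passed the filter on low values in both experiments.

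Bulk RNA-seq was performed on cells that magnetic beads had selected for CD31 and depleted of CD45, 24 h after an intratracheal injection. In the first experiment, male WT C57/BL6J mice aged 8 weeks received saline (n = 4) or 10 mg/kg lipopolysaccharide (LPS), a component of the outer membrane of Gram-negative bacteria (n = 6). In the second, 2 mg/kg LPS was given to every mouse, and Fgfr1 loxP/loxP control littermates (n = 3) were compared with Fgfr1 iΔEC/iΔEC mice (n = 3), which carry CreERT2 under the VE-cadherin promoter to delete the floxed Fgfr1 alleles in endothelium. Tamoxifen, which activates CreERT2, was given intraperitoneally to both genotypes. The floxed mice are described as adult. The sources used here give neither their strain background, sex and exact age nor a statement that each library came from a separate animal, so p-values measure the spread between libraries, which may in part be technical. Reads on genes numbered 13478726 to 18807007 in the saline, 17840221 to 19043015 in the LPS, 15969575 to 17002788 in the loxP/loxP and 16642177 to 16943522 in the iΔEC/iΔEC libraries.

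Interferon-gamma binds its receptor, the signal passes through JAK kinases, and transcription factors, IRF1 among them, switch on GBP and IRG genes in most cell types, endothelium included. GBPs coat the vacuoles and membranes of intracellular bacteria and parasites and release LPS to the caspases of the noncanonical inflammasome. Effector IRGs such as Iigp1 break pathogen vacuoles, whereas the regulatory IRGs Igtp, Irgm1 and Irgm2 sit on the cell's own membranes and hold the effectors in the inactive state.

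In the files' annotation on GRCm38, Gbp5 (chr3:142493978-142522344), Gbp7 (chr3:142530342-142550149), Gbp3 (chr3:142560026-142573209) and Gbp2 (chr3:142620602-142638008) stand in this order on the plus strand of chromosome 3, with the related Gbp2b between Gbp3 and Gbp2. Gbp4 (chr5:105115767-105139586) and Gbp6 (chr5:105270702-105293698) lie on the minus strand of chromosome 5. On chromosome 11, Irgm1 is on the minus strand (chr11:48861968-48871683) and Igtp (chr11:58199556-58207591) and Irgm2 (chr11:58199618-58222782) are on the plus strand. On the same strand, Gbp4 overlaps Gbp8 and Gbp9, Igtp overlaps Irgm2, Gbp7 overlaps Gm43802 and Gbp6 overlaps Gm43302, so counting by gene could divide or lose reads there, and these values are less certain. The strand setting of the counting is not given in the sources used here.

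The stretches of promoter below are shown because the genes rose and fell together across libraries, and each holds the letters of an interferon-stimulated response element (ISRE), the element bound by IRF and STAT complexes. RefSeq promoters (GRCm38.p6, from 250 bases before to 50 bases after the start) were matched by symbol for 7 of the 10 genes, in 8 entries, since Gbp3 has 2 starts. Iigp1 was left out of this search, and Gbp4 and Gbp6 had no entry, so the counts below do not cover these genes. The search used GAAA, any 2 bases and GAAA on both strands, which reads TTTC, any 2 bases and TTTC on the opposite one, and capitals mark the matched bases. Each sequence is written 5′ to 3′ on the strand of its gene.
Gbp5, chr3:142496759-142496788, plus strand: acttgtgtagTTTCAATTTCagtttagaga
Gbp7, chr3:142530273-142530302, plus strand: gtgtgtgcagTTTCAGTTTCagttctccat
Gbp3, chr3:142559992-142560021, plus strand: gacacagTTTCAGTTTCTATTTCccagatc
Gbp2, chr3:142620594-142620623, plus strand: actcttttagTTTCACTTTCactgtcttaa
Irgm1, chr11:48871428-48871457, minus strand: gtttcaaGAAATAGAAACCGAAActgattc
Igtp, chr11:58199512-58199541, plus strand: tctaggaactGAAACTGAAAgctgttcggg
Irgm2, chr11:58214903-58214932, plus strand: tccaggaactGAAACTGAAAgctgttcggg

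Of the 8 entries, 7 held at least 1 match, against 3.44% of the 32851 promoters in the table, and the entry for the second start of Gbp3 held none. The matches began 24 to 165 bases before the start. Gbp3 and Irgm1 held 2 overlapping matches each, and the GBP promoters carried the letters in the opposite orientation to the IRG promoters. A gamma-activated site, searched as TTCNNNGAA, was matched in 4 of the 8 entries, against 8.30% of all promoters, and an NF-kB letter pattern, GGG, any 5 bases and CC on both strands, in 5 of the 8, against 50.8%. Neither of these shared a base with an ISRE match in these entries. A match describes letters in a window and is not evidence of binding in these cells.

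In ECs of saline-treated mice the 10 genes were already read at clear levels, with Gbp2 first and Gbp6 last by the median FPKM (fragments scaled to gene length and library size, so levels can be compared between genes). Median FPKM was 51.4 for Gbp2, 39.2 for Iigp1, 30.6 for Gbp3, 27.1 for Igtp, 26.4 for Irgm2, 22.8 for Gbp7, 15.8 for Gbp4, 11.1 for Irgm1, 4.90 for Gbp5 and 2.30 for Gbp6. The saline libraries differed so much from each other that the ranges of neighbours in this order overlapped. Even the lowest value, that of Gbp6 in saline 1, rested on 42 reads.

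Saline 1 was the lowest saline library for 10 of the 10 genes and saline 2 the highest for 10 of the 10. The summed FPKM of the 10 genes was 91.5, 350, 281 and 182 in saline 1 to 4, a range of 3.82-fold that fell to 1.92-fold without saline 1. The LPS libraries lay between 136 and 215 with a median of 171, a range of 1.58-fold. On the log2(FPKM + 1) scale the median SD of the 10 genes was 0.75 among saline libraries and 0.32 among LPS libraries, beside 0.23 and 0.26 for all genes tested. Without saline 1 the saline values were 0.42 for the 10 genes and 0.13 for all genes. Saline 1 also stood apart over all genes, with a median Pearson correlation of 0.920 with the other saline libraries against 0.961 to 0.964 for the others, and it was the least deeply sequenced library. The fold changes of the 10 genes are given with and without it.

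None of the 10 genes was called higher or lower in LPS than in saline with limma, and limma-voom on the read numbers also called 0. In bulk RNA, fewer cells of a type and less RNA per cell cannot be told apart. A gene was called where its adjusted p reached 0.05 or less and its log2 fold change 1 or more in size. Of 14893 genes tested, 1768 were called higher (11.9%) and 1011 lower (6.79%), or 18.7% in all, and 59.6% had an unadjusted p under 0.05. The division of all calls depended on scaling, with 1378 higher and 1453 lower on total reads, 1366 and 1326 after quantile normalization, and 4342 and 206 when libraries were scaled on endothelial markers. By adjusted p alone, with no limit on the fold change, 1 of the 10 (Gbp7) was lower, in a background of 23.7%, and 0 were higher, in a background of 29.5%. Gbp7 no longer passed when saline 2, 3 or 4 or LPS 1, 2, 4 or 5 was left out, with the replicate number as a block, with no filter on low values, or with scaling on endothelial markers (-0.21 ± 0.36). For 0 of the 10 did the saline and LPS libraries separate without overlap, which 22.7% of all genes did upward and 16.7% downward. The median log2 fold change of the 10 was -0.18, beside 0.01 over all genes. It was negative for 7 genes and positive for 3, but scaling on endothelial markers moved the median of all genes to 0.57 and that of the 10 to 0.37, so that 1 of the 10 was negative. Igtp and Irgm1 were then called higher, in a background of 28.9%. Gbp7 was called lower on total reads, in a background of 9.69%, and Gbp3 and Gbp7 after quantile normalization, in a background of 8.90%.

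**Figure D1:**
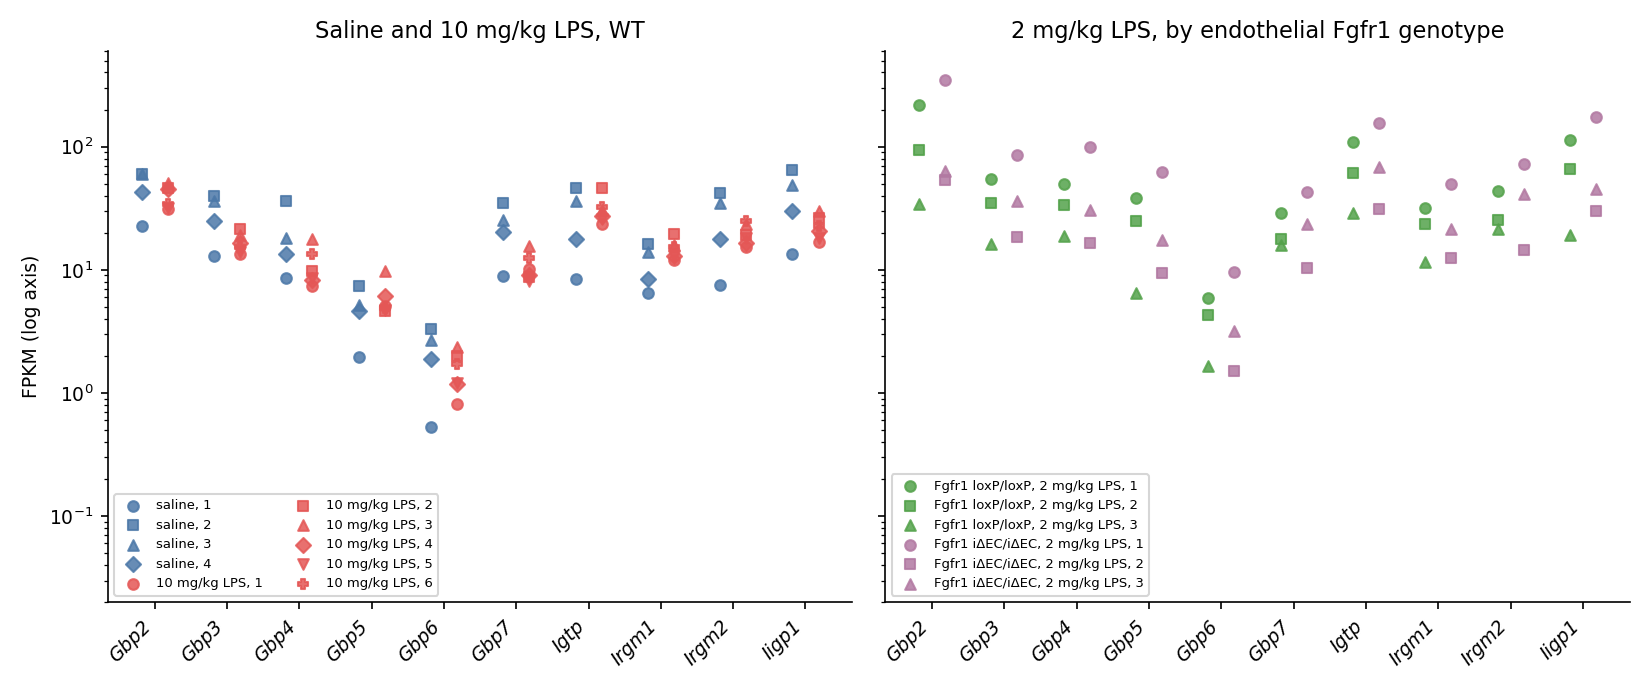
FPKM of the 10 genes on a log axis, 1 point per library, with the shape giving the replicate number. Left, saline (blue) and 10 mg/kg LPS (red) in WT mice, where saline 1 (blue circles) is the lowest saline library for every gene. Right, loxP/loxP (green) and iΔEC/iΔEC (purple) mice at 2 mg/kg LPS, where iΔEC/iΔEC 1 (purple circles) is the highest library for every gene.

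Among the GBPs, Gbp7, which recruits parts of the NADPH oxidase to vacuoles, had the lowest fold change. Its FPKM was 8.90, 34.8, 25.5 and 20.1 in saline 1 to 4 and 8.10 to 15.6 in LPS, with a median of 9.60. Saline 2 to 4 thus lay above all 6 LPS libraries, and saline 1 lay among them. The log2 fold change was -0.88 ± 0.31 (SE) and became -1.25 ± 0.22 without saline 1.

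Gbp3 followed the same course, at 12.9, 40.0, 36.2 and 25.1 FPKM in saline 1 to 4 and 13.5 to 21.5 in LPS, with a median of 15.9. Again saline 2 to 4 were above every LPS library, and saline 1 was below all of them. Its log2 fold change of -0.65 ± 0.27 moved to -0.97 ± 0.18 without saline 1. Gbp4 read 8.59, 36.1, 18.1 and 13.5 FPKM in saline and 7.40 to 17.9 in LPS, and its groups overlapped with or without saline 1 (-0.64 ± 0.34 and -0.93 ± 0.32).

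Gbp2, a prenylated GBP that marks vacuoles of bacteria and parasites, was the most abundant of the 10 in LPS as well. It read 22.6, 60.1, 59.9 and 42.9 FPKM in saline 1 to 4 and 31.3 to 50.4 in LPS, with a median of 39.9. The LPS values fell inside the saline range, and the log2 fold change was -0.14 ± 0.26, or -0.44 ± 0.19 without saline 1. Gbp5, which promotes assembly of the NLRP3 inflammasome, read 1.97, 7.40, 5.17 and 4.63 in saline and 4.62 to 9.69 in LPS (0.30 ± 0.27, and 0.01 ± 0.22 without saline 1). Gbp6 stayed between 0.533 and 3.31 FPKM in all 10 libraries (-0.22 ± 0.28, and -0.53 ± 0.21 without saline 1).

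Igtp, a regulatory IRG of the endoplasmic reticulum, read 8.49, 45.8, 36.3 and 17.9 FPKM in saline 1 to 4 and 23.7 to 45.9 in LPS, with a median of 29.1. Saline 2 and 3 were level with the upper LPS libraries and saline 1 and 4 were below all 6. The log2 fold change was 0.40 ± 0.38 with all libraries and -0.04 ± 0.28 without saline 1, so its sign depended on that library. Irgm1, a regulator of autophagy and mitochondrial clearance, read 6.54, 16.2, 13.9 and 8.35 in saline and 12 to 19.5 in LPS (0.42 ± 0.23, and 0.22 ± 0.20 without saline 1). Irgm2 read 7.54, 41.7, 35.1 and 17.8 in saline and 15.3 to 25 in LPS, and its log2 fold change went from -0.14 ± 0.38 to -0.60 ± 0.25 without saline 1.

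The effector Iigp1, on chromosome 18, read 13.4, 64.4, 48.5 and 29.9 FPKM in saline 1 to 4 and 16.8 to 30.1 in LPS, with a median of 21.8. Only saline 2 and 3 exceeded every LPS library, and saline 4 fell just below the highest. The log2 fold change was -0.59 ± 0.35 with all libraries and -1.01 ± 0.24 without saline 1.

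Leaving out saline 1, the lowest saline library, shifted the fold changes of all 10 genes downward, and leaving out saline 2, the highest, shifted them upward. Without saline 1, the median log2 fold change of the 10 genes became -0.56, while that of all genes was 0.02, and 8 of the 10 were negative. Gbp7 and Iigp1 were then called lower (2 of 10, in a background of 7.30%), and by adjusted p alone Gbp3, Gbp4, Gbp7 and Iigp1 were lower (4 of 10, in a background of 25.5%) and 0 were higher, in a background of 31.2%. Gbp3 and Gbp7 then separated from saline without overlap (2 of 10 downward, in a background of 24.0%, and 0 upward, in a background of 29.5%). Without saline 2 the median of the 10 was -0.01, beside 0.03 for all genes, and 5 of the 10 were negative. By adjusted p alone Irgm1 was then higher (0.61 ± 0.22) and 0 of the 10 were lower. In that setting 6708 of 14817 genes tested passed the adjusted p alone in either direction. No left-out library other than saline 1 produced a call among the 10.

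**Figure D2:**
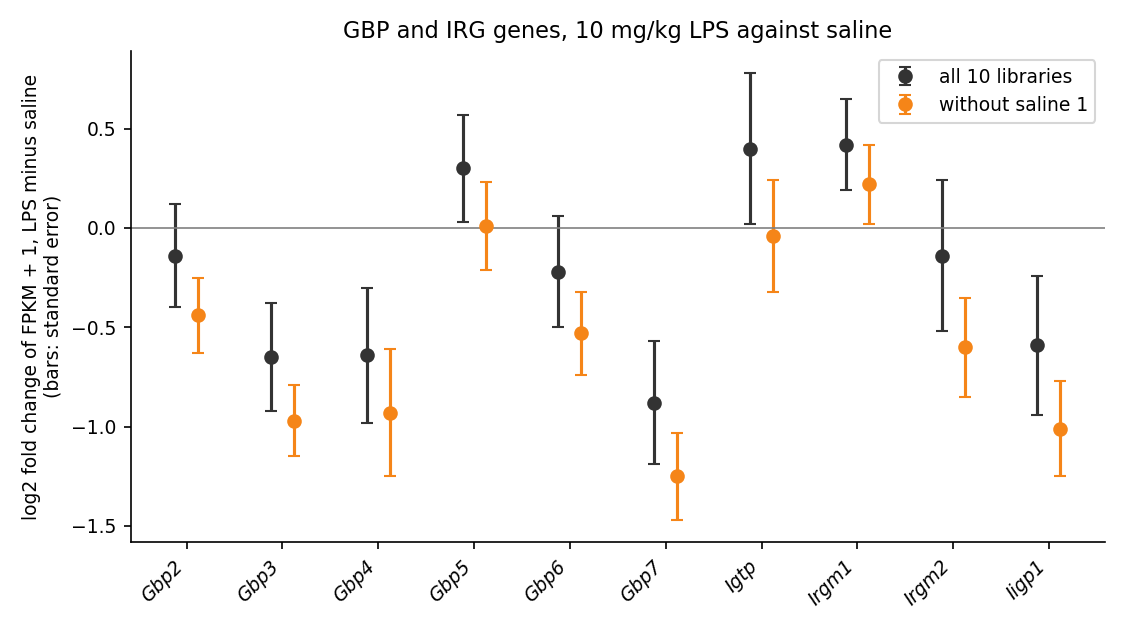
Log2 fold change of each gene in 10 mg/kg LPS minus saline, on the log2(FPKM + 1) scale, with bars of 1 standard error. Black points use all 10 libraries and orange points leave out saline 1. All 10 orange points lie below their black ones, and Gbp7 moves from -0.88 to -1.25. With scaling on endothelial markers (not drawn), 9 of the 10 values are above 0, but the median of all genes is then 0.57 and that of the 10 is 0.37.

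The balance between the 10 genes within a library, which a single scaling factor per library leaves as it is but quantile normalization does not, differed between saline and LPS for 5 of them. Taken as a share of the summed FPKM of the 10, Igtp made up 9.28 to 13.1% in saline and 14.3 to 22.5% in LPS, and Irgm1 4.59 to 7.15% and 7.37 to 9.56%. The shares of these 2 regulatory IRGs were higher in every LPS library than in any saline library, saline 1 included. Gbp7 had a lower share in every LPS library, at 9.05 to 11% in saline and 4.32 to 7.46% in LPS. Gbp3 made up 11.4 to 14.1% and then 8.61 to 10.6%, and Iigp1 14.6 to 18.4% and then 12.4 to 14%. Shares of a fixed sum are tied to each other, and the shares of Gbp2, Gbp4, Gbp5, Gbp6 and Irgm2 overlapped between the groups. The same ratio to the summed FPKM of the 10 separated upward for 7.74% and downward for 4.56% of the other genes tested. The 10 genes moved together across libraries, so the spread of their sum largely cancels in their own shares but enters the ratios of other genes. These percentages are therefore no like-for-like background. Without saline 1 the counts for the 10 genes were again 2 upward and 3 downward, but the shares of other genes were 31.5% and 4.83%.

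**Figure D3:**
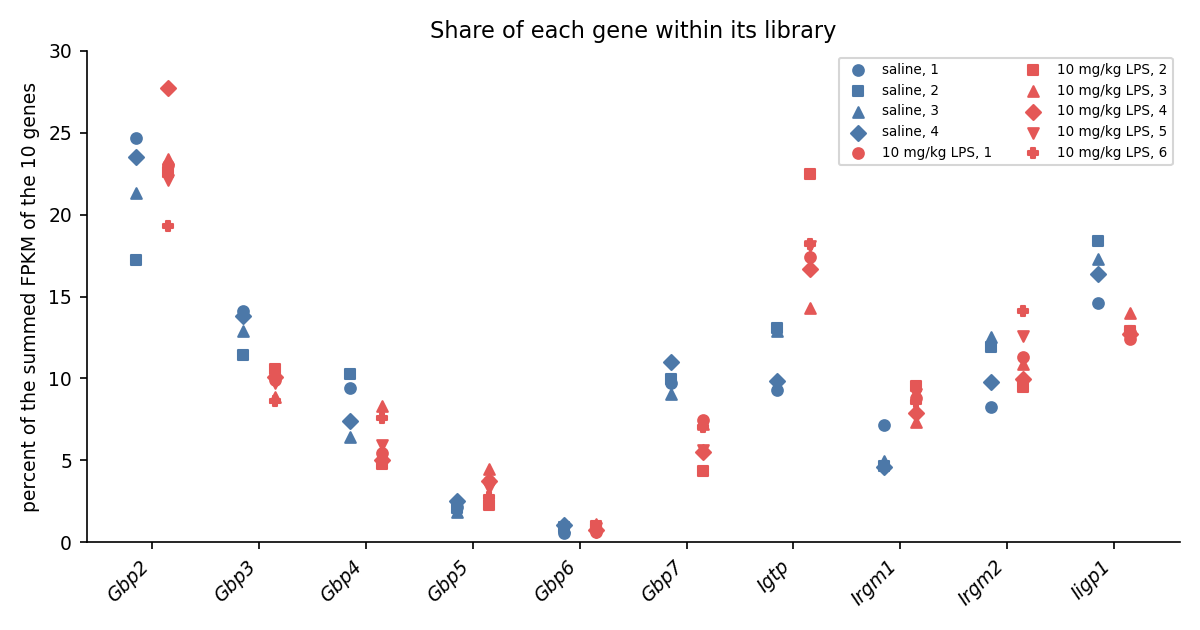
Share of each gene in the summed FPKM of the 10 genes of its library, in percent, with 1 point per library for saline (blue) and 10 mg/kg LPS (red). The points of Igtp and Irgm1 are higher in all 6 LPS libraries and those of Gbp3, Gbp7 and Iigp1 are lower, without overlap. The other 5 genes overlap.

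Other members of the families were also examined. Of the 5 other GBP genes, 2 were tested and 0 were called, in a background of 18.7%. Gbp9 read 32.5 to 62.1 FPKM in saline and 24.7 to 50.6 in LPS, and Gbp8 read 1.54 to 3.62 and 0.610 to 1.98. Both overlap Gbp4, and their log2 fold changes were -0.53 ± 0.24 and -0.82 ± 0.20 (limma adjusted p = 0.0820 and 0.00590). Gbp2b, Gbp10 and Gbp11 were under 1 FPKM in each of the 10 libraries.

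Of the 11 other IRG and related GTPase genes tested, 1 was called higher and 0 lower, close to the 11.9% and 6.79% of all genes. This was Gm12250, annotated in the files as a processed pseudogene, at 1.66, 9.15, 9.67 and 1.95 FPKM in saline and 8.34 to 15 in LPS (log2 fold change 1.17 ± 0.39, adjusted p = 0.0262), and the call was lost when saline 1 or saline 4 was left out. Tgtp1 (0.377 to 3.09 and 2.08 to 5.23 FPKM) and Tgtp2 (3.14 to 27.0 and 8.19 to 17.3) are near-identical copies, so their division of reads is uncertain. Ifi47 read 18.5 to 44.6 in saline and 28.4 to 59.8 in LPS. The remaining genes of this list gave log2 fold changes from -0.59 (Irgq) to 0.81 (Gm5431), with Gm4951, Gm12185, F830016B08Rik, Gvin1 and Gm4070 in between, and Gm4841, Irgc1 and Gm8979 were too low to test.

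Ifng, which T and NK cells make, was hardly seen in these libraries. It had 0, 6, 3 and 6 reads in saline 1 to 4 and 0 to 5 reads in the LPS libraries, and it was too low to test. Of 11 genes listed for interferons and cytokines that induce them, 6 were tested, all of them for cytokines other than interferons. Of these 6, 4 were called higher, namely Tnf, Ebi3, Il27 and Il12a, in a background of 11.9%. Tnf, the inflammatory cytokine, read 0.341 to 0.738 FPKM in saline and 25.3 to 89.2 in LPS (log2 fold change 5.11 ± 0.31, adjusted p = 9.91e-07). Ebi3, which pairs with the product of Il27 to form interleukin-27, read 0.291 to 2.88 and then 15.9 to 42.8 (3.85 ± 0.32, adjusted p = 6.13e-06). Il15, named after its value was seen, was the only one called lower (-1.11 ± 0.18, adjusted p = 0.000510), and 0 were called lower without saline 1.

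Of the 7 receptor and JAK kinase genes, 0 were called, but 4 passed the adjusted p alone, all upward, which 29.5% of all genes did. These were, chosen after their values were seen, Ifngr1 (76.3 to 97.8 FPKM in saline, 143 to 182 in LPS), Ifngr2 (12.7 to 21.2 and 30.8 to 40.3), Ifnar2 and Jak2. In none of these 4 did the groups overlap, as in 22.7% of all genes upward. The log2 fold change of Ifngr1, which encodes the ligand-binding chain of the interferon-gamma receptor, was 0.99 ± 0.13 (adjusted p = 9.30e-05), just under the limit, and 2 genes of this list were called without saline 1.

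Among 13 STAT and IRF factors and related regulators, 3 were called higher and 1 lower, in backgrounds of 11.9% and 6.79%. Irf1 read 37.1, 61.6, 64.7 and 53.4 in saline and 29.4 to 47.2 in LPS (-0.45 ± 0.17, adjusted p = 0.0470). Irf7, the amplifier of type I interferon, read 9.55 to 21.0 and 126 to 254 (3.35 ± 0.25, adjusted p = 2.43e-06). Batf3 and Irf8 were the other two called higher, and the count was 2 without LPS 1 or saline 3. Ciita, the master regulator of MHC class II genes, was called lower (-1.27 ± 0.26, adjusted p = 0.00215) except without saline 2.

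Of 12 genes listed as inhibitors of interferon signaling, Isg15 and Il18bp included, 6 were called higher in LPS (11.9% of all genes) and 0 lower (6.79%). Whether each of them inhibits the pathway in these cells was not tested. By adjusted p alone 8 were higher (29.5% of all genes) and 1 lower (23.7%). The lower one was Pias3, named after its value was seen, at -0.50 ± 0.09. The largest changes were those of Ptpn6 (3.77 ± 0.31), a phosphatase abundant in leukocytes, Socs3 (2.48 ± 0.48), Isg15 (2.40 ± 0.33) and Usp18 (1.43 ± 0.27), which blunts type I interferon receptor signaling. Their adjusted p-values were 5.27e-06, 0.00140, 0.000162 and 0.00115.

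Of 25 other genes known as interferon-gamma targets, 11 were called higher and 0 lower, in backgrounds of 11.9% and 6.79%. Their median log2 fold change was 0.73. Acod1, the itaconate-producing enzyme of macrophages, changed by 5.36 ± 0.73 and Fcgr1, a high-affinity Fc receptor of macrophages, by 3.99 ± 0.25 (adjusted p = 0.000159 and 1.15e-06). The chemokine gene Cxcl10 rose from 0.338 to 0.973 FPKM in saline to 9.49 to 28.1 in LPS (3.66 ± 0.26, adjusted p = 2.23e-06), and Cd274, which encodes PD-L1, from 5.97 to 11.4 to 43.5 to 127 (2.78 ± 0.31, adjusted p = 3.61e-05). Whether the 10 GBP and IRG genes differ from this list was not tested.

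Genes of proteins that act with GBPs were examined next. Of 13 inflammasome and pyroptosis genes, 7 were called higher and 0 lower, in backgrounds of 11.9% and 6.79%. Among those called were Il1b at 4.83 ± 0.94, the sensor Nlrp3 at 3.35 ± 0.46, the nucleic acid sensor Zbp1 at 2.98 ± 0.21 and the adaptor Pycard at 2.16 ± 0.24 (limma adjusted p = 0.00146, 0.000156, 2.06e-06 and 4.41e-05). Autophagy conjugation partners, which load GBPs and IRGs on vacuoles, were called higher for 2 of 15 genes, close to the 11.9% of all genes. By adjusted p alone 6 were higher (29.5% of all genes) and 2 lower (23.7%). The 2 called were Lgals3 (3.86 ± 0.38) and Gabarap (1.33 ± 0.21; adjusted p = 1.75e-05 and 0.000399). Of 7 genes listed for prenylation, the route to the lipid anchor of Gbp2 and Gbp5, 0 were called.

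**Figure D4:**
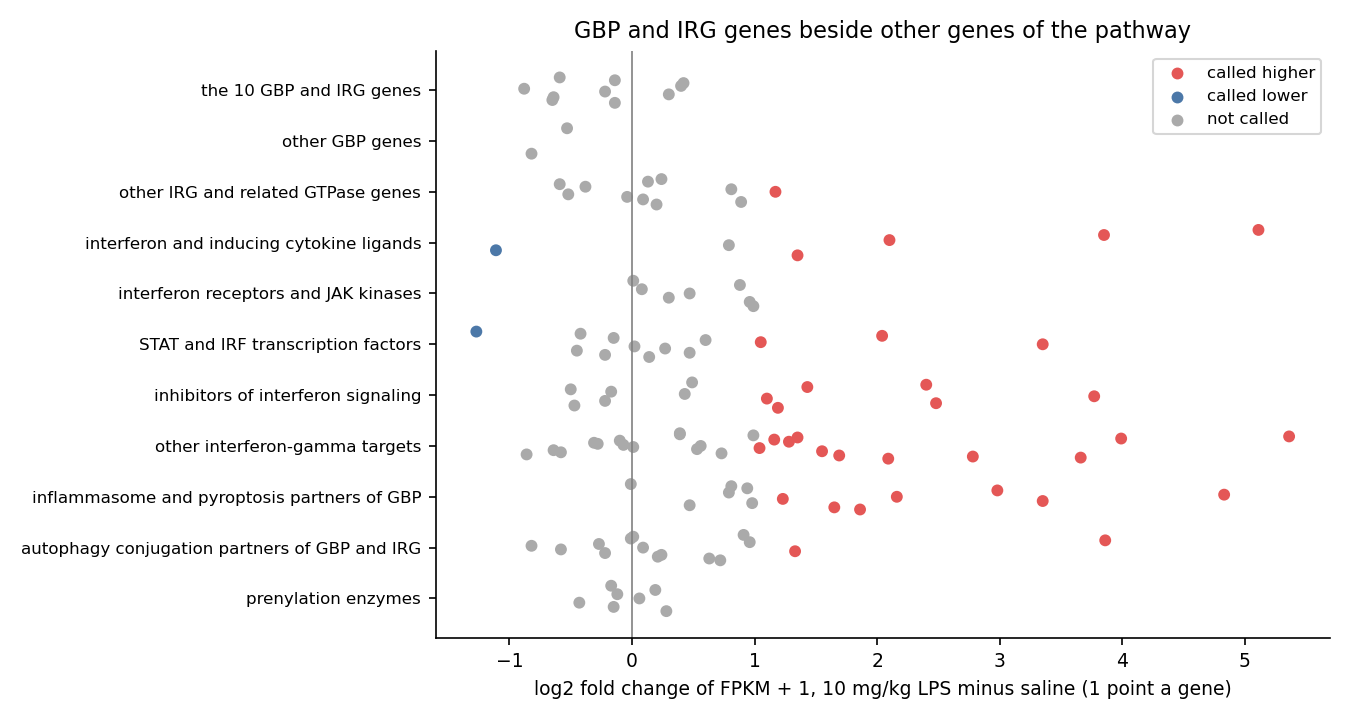
Log2 fold change of each gene tested, 10 mg/kg LPS minus saline, for the 10 GBP and IRG genes and 10 lists of related genes. Red and blue points were called higher and lower, and grey points were not called. The 10 genes, chosen with these values known, lie between -0.88 and 0.42. Of the 25 other interferon-gamma targets, 11 were called higher, in a background of 11.9%. Whether the 10 genes differ from this list was not tested. Scaling on endothelial markers (not drawn) moves the median of all genes to 0.57 and that of the 10 to 0.37.

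Transcripts of other cell types moved with the treatment, beside 11.9% of all genes called higher and 6.79% called lower. The 6 leukocyte markers were called higher in 6 of 6, with a summed FPKM of 227, 156, 76.5 and 138 in saline 1 to 4 and 641 to 1554 in LPS, led by Coro1a. Macrophage markers were called higher in 7 of 8, with 1202, 472, 735 and 376 in saline and 2095 to 4806 in LPS, led by Lyz2, and Marco had 0 reads in saline 1. Neutrophil markers were called higher in 7 of 8, with 1380, 69.5, 307 and 74.1 in saline and 1293 to 6638 in LPS, led by S100a9, and Ly6g had 0 reads in saline 4. Ptprc, which encodes CD45, read 3.53 to 11 and 22.1 to 52.7 FPKM (2.19 ± 0.28, adjusted p = 0.000112).

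Epithelial markers summed to 1071 to 2848 FPKM in saline and 264 to 944 in LPS, led by Sftpc, with 2 of 10 called lower. B cell markers were called lower in 3 of 4 and erythroid markers higher in 3 of 4.

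The 10 endothelial markers were read in every library, and 3 of 10 were called lower and 0 higher. Their summed FPKM was 5429, 3276, 4066 and 3391 in saline 1 to 4 and 1434 to 3382 in LPS, led by Cldn5. The macrophage sum exceeded the endothelial sum in LPS 1, 2, 3 and 5, the neutrophil sum in LPS 1, 2 and 4, and the leukocyte sum in LPS 1. The LPS libraries thus held leukocyte transcripts beside endothelial ones despite the depletion of CD45. Pecam1, which encodes CD31, read 339 to 516 FPKM in saline and 234 to 444 in LPS (-0.17 ± 0.21, adjusted p = 0.516). Saline 1, the library lowest in the 10 GBP and IRG genes, was the saline library with the highest summed FPKM of leukocyte, neutrophil, macrophage, epithelial, mural and endothelial markers and with the most Fgfr1, although saline 3 was higher in endothelial markers by the mean log2(FPKM + 1) (8.09 against 8.01), while its T and NK cell markers summed to 66.9 FPKM, against 19.4 to 33.0 in the other saline libraries. The part of these cell types in the GBP and IRG values was not tested.

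In the second experiment, the targeted gene was examined first. Fgfr1 read 2.90, 2.91 and 2.60 FPKM in loxP/loxP 1 to 3 and 0.682, 1.41 and 1.15 in iΔEC/iΔEC 1 to 3, so the groups did not overlap and the labels held (log2 fold change -0.88 ± 0.16, adjusted p = 0.962). Downward separation of this kind occurred for 4.09% and upward separation for 6.02% of 14945 genes tested. Under limma 0 genes were called in either direction (0%), with a smallest adjusted p of 0.742. An unadjusted p under 0.05 was reached by 661 genes (4.42%), and limma-voom on the read numbers also called 0.

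The 10 GBP and IRG genes varied more between libraries of a genotype than between the genotypes. Their summed FPKM was 690, 384 and 175 in loxP/loxP 1 to 3 and 1095, 198 and 350 in iΔEC/iΔEC 1 to 3. All 10 groups of values overlapped, 0 were called, and the log2 fold changes ran from 0.05 (Gbp6) to 0.29 (Irgm2), with standard errors of 0.49 to 0.90. IΔEC/iΔEC 1 was the highest of the 6 libraries and loxP/loxP 1 the second for 10 of the 10 genes, and the lowest of their groups were iΔEC/iΔEC 2 and loxP/loxP 3 for 10 of the 10.

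Gbp2 read 217, 93.2 and 34.5 FPKM in loxP/loxP 1 to 3 and 345, 53.5 and 62.9 in iΔEC/iΔEC 1 to 3, or 1574 to 14319 reads. The highest library exceeded the lowest of its genotype 6.29-fold in loxP/loxP, the widest range of the 10 there, and 6.46-fold in iΔEC/iΔEC, where the 6.52-fold range of Gbp5 was wider. Iigp1 read 113, 65.8 and 19.2 and then 173, 30 and 45.2 FPKM. Igtp read 108, 60.9 and 28.8 and then 155, 31.4 and 68.2. Every one of these genes kept the first library of each genotype on top.

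Gbp5 went from 6.43 to 38.6 FPKM in loxP/loxP and from 9.48 to 61.8 in iΔEC/iΔEC, and Gbp4 from 18.8 to 49.4 and from 16.5 to 98.9. Gbp7 had the narrowest span in loxP/loxP, at 28.8, 17.8 and 15.8 FPKM, a 1.83-fold range. The SD of the 10 genes on the log2(FPKM + 1) scale had a median of 0.79 in loxP/loxP and 1.14 in iΔEC/iΔEC, beside 0.18 and 0.16 for all genes. In iΔEC/iΔEC each of the 10 had a larger SD than 98.4% of all genes tested or more. In loxP/loxP this percentage was lower for some genes, from 87.5% for Gbp7 to 99.3% for Gbp2.

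Libraries with the same replicate number deviated together over all genes, and the differences were therefore also taken within numbers. With number 1 the 10 genes were higher in iΔEC/iΔEC by 0.53 to 0.99 on the log2 scale, and with number 3 by 0.56 to 1.32. With number 2 all 10 were lower, at -1.29 to -0.74. Gbp2 differed by 0.67, -0.79 and 0.85 and Gbp5 by 0.66, -1.29 and 1.32. The 10 genes moved together, so their shared sign within a number is not 10 separate observations. A fit with the number as a block called 0 genes as well, with a smallest adjusted p of 0.306.

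**Figure D5:**
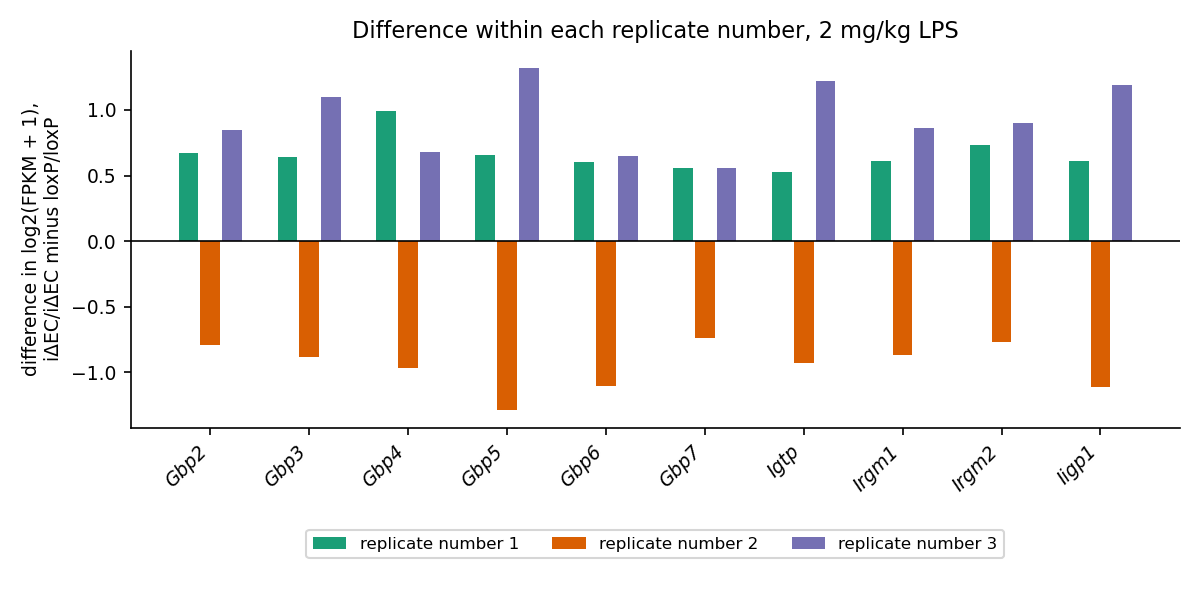
Difference in log2(FPKM + 1), iΔEC/iΔEC minus loxP/loxP, between libraries with the same replicate number, with 1 bar per gene and number. Numbers 1 and 3 are above 0 and number 2 is below 0 for all 10 genes, between -1.29 and 1.32.

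The direction of the genotype difference rested on single libraries. The median log2 fold change of the 10 was 0.23 with all 6 libraries, beside 0.01 over all genes. It was -0.40 without iΔEC/iΔEC 1 and -0.21 without loxP/loxP 3, and it rose to 0.63 without loxP/loxP 1 and to 0.77 without iΔEC/iΔEC 2. With scaling on endothelial markers it was -0.01, beside -0.19 over all genes.

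Marker levels differed between these libraries too. In the order loxP/loxP 1 to 3 and then iΔEC/iΔEC 1 to 3, leukocyte markers summed to 458, 605, 543, 308, 675 and 409 FPKM. Neutrophil markers summed to 1178, 2564, 2619, 755, 2456 and 1548, and endothelial markers to 2891, 2303, 2399, 3642, 2616 and 3336. Epithelial markers summed to 923, 1669, 2915, 429, 1102 and 847. IΔEC/iΔEC 1, highest in the 10 GBP and IRG genes, thus had the least leukocyte, neutrophil and epithelial and the most endothelial signal. The median log2 fold change of the epithelial markers was -0.82, with 10 of 10 negative, 2 apart downward (4.09% of all genes) and 0 called. T and NK cell markers were negative in 10 of 10, with 3 apart downward. All leukocyte (6), neutrophil (8), macrophage (8) and B cell (4) markers were negative. Endothelial markers were positive in 9 of 10, with 2 apart upward (6.02% of all genes), and erythroid markers in 4 of 4. Ptprc read 14.0, 16.8 and 23.2 FPKM in loxP/loxP and 10.1, 21.8 and 13.8 in iΔEC/iΔEC. Over the 6 libraries its deviations from the group means had a Pearson r of -0.98 with the mean of the 10 genes, as a description across libraries that share these markers. Over the 10 libraries of the first experiment this r was -0.459. The part of cell composition in the GBP and IRG values was not tested.

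Ifng was seen at low numbers here. It had 33, 7 and 6 reads in loxP/loxP 1 to 3 and 25, 6 and 15 in iΔEC/iΔEC 1 to 3, or 0.256 to 1.5 FPKM. LoxP/loxP 1 and iΔEC/iΔEC 1 were the highest in Ifng as they were in the 10 genes. Irf1 read 77.8, 62.9 and 38.9 and then 118, 31.6 and 60.3 FPKM, with the library order of the 10 genes within each genotype. T and NK cell markers summed to 84.8, 61.3 and 63.5 in loxP/loxP and 43.7, 51.0 and 48.1 in iΔEC/iΔEC. None of the pathway lists held a called gene in this comparison.

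Gbp2b was the exception within the chromosome 3 cluster. It read 0.146, 25.4 and 12.6 FPKM in loxP/loxP 1 to 3 and 0.129, 0.0209 and 57.9 in iΔEC/iΔEC 1 to 3, which were 7, 1177, 646, 6, 1 and 2662 reads. Gbp2b was therefore near 0 in 3 libraries, among them the pair with the highest levels of all 10 genes, and in the first experiment the highest value was 0.378 FPKM. Gbp2b lies directly before Gbp2, and its promoter also held the ISRE letters (chr3:142594700-142594729, plus strand), shown for comparison with Gbp2.
Gbp2b: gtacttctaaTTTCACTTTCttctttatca
Inducible Gbp2b is known to be present in some inbred mouse strains and lacking in C57BL/6. The strain background of the floxed mice is not given in the sources used here, and its part in these Gbp2b values was not tested.

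The 10 genes moved together within groups in both experiments. For deviations of log2(FPKM + 1) from group means, the 45 pairs of genes had Pearson correlations of 0.65 (Gbp5 with Irgm1) to 0.98, with a median of 0.89, over the 10 saline and LPS libraries. Without saline 1 they ran from 0.26 to 0.99 with a median of 0.76. Over the 6 libraries of the second experiment the range was 0.81 (Gbp2 with Irgm2) to 1.00 and the median 0.96. These points share library, depth and cell composition. Outside the set, the genes most like the mean of the 10 in the first experiment were Zkscan4 (r = 0.973), Tgtp2 (0.966), Gm4951 (0.959), Gm15408 (0.948) and Irf9 (0.938). In the second experiment they were Pgm1 (1.000), Ccdc28b (0.999), Slc35g2 (0.998), Arhgef5 (0.998) and Dnah2os (0.997), where 6 libraries in 2 groups leave few independent points and values near 1 are common. Irf1 ranked 57 and 36 among all other genes tested.

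Set side by side, the summed FPKM of the 10 genes was 91.5 to 350 after saline, 136 to 215 after 10 mg/kg LPS and 175 to 690 in loxP/loxP mice after 2 mg/kg LPS. The tables of the experiments were normalized separately and the mice and doses differ, so no test was made between them.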

How the data were processed

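Lung ECs were isolated by the authors with anti-CD45 and anti-CD31 beads, and RNA was sequenced on an Illumina NovaSeq. Per the labels and methods, reads were aligned to GRCm38/mm10 with HISAT2 2.0.5 and counted on genes with featureCounts 1.5.0-p3. The annotation release, strandedness and treatment of reads with several alignments are not given in the sources used here. The authors deposited FPKM (fragments scaled to gene length and library size) in a table for each experiment. Multiplied by gene length and library size, the FPKM values were whole read numbers for 100.0% of values (relative tolerance 0.001). Library sizes in them follow median-of-ratios scaling, within 0.0% and 0.18%, and 11 symbols turned into dates in the second table were taken from the first.

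Genes averaging 0.5 FPKM or more were compared within a table on log2(FPKM + 1), using limma 3.58.1 (trend) in R 4.3.3 with Benjamini-Hochberg adjustment over all genes. A fold change on this scale understates changes of low genes. Fits were tested on simulated data. Figures were drawn with matplotlib 3.10.9 and tables made with pandas 2.3.3 and numpy 2.4.6 in Python 3.11.15. No replicates agreed within sampling noise (chi-square per degree of freedom at least 7.28). In the second experiment libraries with equal replicate numbers, taken from the titles, deviated together. Their deviations from group means correlated at 0.248, 0.178 and 0.187. All others were below 0, which centering on 3 libraries a group largely forces once equal numbers are positive. The sources used here do not say that the numbers mark a pairing. Intervals of reads cover counting error only, since no molecular identifiers were used, and 3 reads were taken as the floor.

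The 10 genes, the pathway lists and the marker lists were chosen with earlier results of these data known. Named genes were the 10, Fgfr1, Ifng, Irf1, Ptprc, Pecam1, up to 4 called genes per list with the largest change, the other GBP and IRG genes and the 5 most like the mean of the 10 in each experiment. Alternatives were another pseudocount (0.1), no filter, limma-voom, 3 other scalings, no fold limit, a replicate block and leaving out each library. Shares within a library and the spread and correlations without saline 1 were added after seeing the data. Some results are not reported here.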

Additional observations from a re-analysis of the deposited data

Results flagged for a closer look

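Within the groups of 4 saline and 6 LPS libraries, 50 group values were examined for a single library far from the rest, of which chance alone would set apart about 1 in 20, or 2.5, and 3 are given here. Gbp5 read 9.69 FPKM in LPS 3, against 4.62 to 6.12 in the other LPS libraries. Fgfr1 read 5.52 FPKM in saline 1, the library lowest in the 10 GBP and IRG genes among saline, against 2.82 to 3.17. The fibroblast marker list had a mean log2(FPKM + 1) of 2.21 in saline 3, against 2.70 to 2.77. The causes were not tested.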

How the results depend on the processing

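For LPS over saline, genes called higher numbered 4342 with scaling on endothelial markers and 4399 with no limit on the fold change, and genes called lower 206 and 3529, 2008 with limma-voom and 1840 with a pseudocount of 0.1. Of the 10 genes, 2 were called higher with scaling on endothelial markers (Igtp and Irgm1, in a background of 28.9%), which moved the median of all genes to 0.57 and that of the 10 to 0.37. Called lower were 2 after quantile normalization (Gbp3 and Gbp7, in a background of 8.90%), 1 on total reads (Gbp7, in a background of 9.69%, where the median of all genes moved to -0.15) and 1 with no fold limit. The cause was not tested. Leaving out single libraries gave 0 to 2 of the 10 called lower. With the replicate block, 1925 genes were higher and 1063 lower and 0 of the 10 were called, but equal numbers did not deviate together in this experiment (correlations of 0.097, -0.162, -0.209 and -0.117). In the second experiment the block, like all other alternatives run, left every count at 0. Of the recomputed values of single genes and lists, 889 moved by less than the spread between libraries (values) or stayed within 1.5 times (counts and ranges) and 56 moved by more, and signs within that spread could change, as for Igtp without saline 1. With 3 libraries a genotype and SDs near 1 on the log2 scale, differences of the size seen here could not be told from the spread between libraries.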

Other observations

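In the second experiment, 13 of the 26 other interferon-gamma targets tested had the library order of the GBP and IRG genes within both genotypes, and 13 did not. That order was held by 4.71% of all other genes tested and was read from these same libraries. The genes named here were chosen after their values were seen. Ido1, the tryptophan-degrading enzyme, read 6.35, 4.17 and 1.09 FPKM in loxP/loxP 1 to 3 and 10.7, 0.679 and 2.59 in iΔEC/iΔEC 1 to 3. The chemokine gene Cxcl9 read 21.7, 15.9 and 3.02 and then 29.7, 4.11 and 9.26, and Cxcl10 78.4, 61.1 and 8.50 and then 109, 24.1 and 36.0. In the first experiment these genes differed in direction. Cxcl9 lay at 0.0251 to 0.130 FPKM in saline and 2.02 to 4.93 in LPS, a limma log2 difference of 2.09 ± 0.20 (adjusted p = 1.52e-05). Ido1 lay at 1.28 to 2.24 in saline and 0.366 to 0.872 in LPS (-0.86 ± 0.14, adjusted p = 0.000448), below saline in all 6 LPS libraries. Ubd, which encodes a ubiquitin-like modifier, did not keep the library order, with 35.8, 57.4 and 2.43 in loxP/loxP and 18.0, 7.54 and 4.22 in iΔEC/iΔEC.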
